A study of Homo sapiens with 12 samples.

Results

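The 10 enzymes described here build purine and pyrimidine nucleotides from amino acids, CO2 and folate-borne carbon units. They were chosen by gene symbol from textbook pathways, by a rule that uses no measured value but with earlier results of these data known, and all 10 were found among the 58735 genes of the count table. Of these, 7 belong to the purine branch (PPAT, GART, PFAS, PAICS, ADSL, ATIC and IMPDH2) and 3 to the pyrimidine branch (CAD, DHODH and UMPS). The purine branch assembles the ring step by step on activated ribose phosphate up to IMP, from which IMPDH2 leads towards GMP. The pyrimidine branch closes the ring first and attaches the ribose phosphate afterwards, giving UMP. Growing cells need both products for ribosomal RNA and DNA, and both branches are known to respond to growth signals that pass through the kinase mTORC1, which also phosphorylates the translation repressor 4EBP1.

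All libraries came from human embryonic kidney 293T cells transduced with a lentiviral construct that encodes 4EBP1-4A under doxycycline control. In 4EBP1-4A, 3 threonines and 1 serine that kinases phosphorylate are replaced by alanine, so that the protein stays bound to the cap-binding factor eIF4E. Transduced cells were sorted on GFP as a population. Both groups carried the construct: 1 group received DMSO and the other received doxycycline at 2 mg/mL. The labels and methods give the treatment as 12 h, the series text as 2 h, and the results text of the study as longer. Cells without the construct were not treated with doxycycline, so the induced protein and the drug cannot be told apart. Each group has 3 RNA-seq libraries and 3 Ribo-seq libraries (sequenced mRNA fragments that ribosomes protect), which the study calls biological replicates. The labels do not say whether they were separate cultures, so p-values measure the spread between these libraries.

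Depth on genes was 45887231 to 57824136 reads in 5 of the RNA-seq libraries and 21687906 in doxycycline replicate 3. In that library, 5.94% of all reads in the table fell on genes, against 19.7% to 30.8% in the other 5. Reads with more than 1 alignment were 88.4% of the total there and 54.9% to 69.9% elsewhere. RNA-seq calls are given with all 6 libraries and again without doxycycline replicate 3, which earlier results of these data had shown to stand apart. Calls without that library are conditional on this choice. Some log2 fold changes, among them those of the related genes, are given only without it. The induced gene, EIF4EBP1, was 1.68-fold higher with doxycycline, both with all 6 libraries and without doxycycline replicate 3. Its edgeR adjusted p was 0.326 with all 6 libraries, where it was not called, and 1.19e-05 without that library. The reads of EIF4EBP1 may come from the endogenous gene or from the construct. All 9 markers of the 293T line were detected at 1 CPM or more, and none of 5 blood markers reached 1 CPM. Of 6 keratinocyte markers, KRT10 alone reached 1 CPM, at 5.08 to 5.73 CPM with DMSO and 2.21 to 4.94 CPM with doxycycline; KRT5 and KRT14 were at 0 in every library, and the list summed to 5.24 to 5.82 CPM with DMSO and 2.37 to 5.04 CPM with doxycycline. The summed level of the 9 markers of the line was 1008 to 1100 CPM with DMSO and 1135 to 1381 CPM with doxycycline. Most of this sum was VIM, at 770 to 825 CPM with DMSO and 817 to 923 CPM with doxycycline. Of 5 fibroblast markers, 3 reached 1 CPM, and the list summed to 12.2 to 14.7 CPM with DMSO and 14.0 to 28.0 CPM with doxycycline, with the highest sum in doxycycline replicate 3. The part of these markers in the results below was not tested.

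The stretches of promoter shown first are those that held any of 3 motifs searched in the promoters of these genes. RefSeq windows of GRCh38.p14 from 250 bases before to 50 bases after a transcript start were found for 8 of the 10 genes, as 12 windows; ADSL and IMPDH2 had none in the table. CACGTG, the E-box recognised by MYC with MAX and by related factors, was in 4 of the 12 windows and in 7.26% of the 35116 windows of all genes. Those 4 windows belong to ATIC, DHODH, PPAT and PAICS. In ATIC, 1 element lies 46 bases upstream of the start, at chr2:215312003-215312028 on the + strand. A second one lies 29 bases downstream, at chr2:215312078-215312103. The element of DHODH lies 159 bases upstream of its start, at chr16:72008575-72008600 on the + strand. The elements of PPAT and PAICS are the same 6 bases read from opposite strands, at chr4:56435782-56435807 on the − strand for PPAT, 182 bases upstream of its start, and 40 bases downstream of the start of PAICS. TGACGTCA, the cyclic AMP response element, was in 1.85% of all windows and in 1 window of these genes, that of UMPS, at chr3:124730395-124730422 on the + strand. The element bound by ATF4 with C/EBP factors, searched as TGATGNAA, was in 3.62% of all windows and in none of the 12. Distances count to the first base of the motif, and coordinates include the flanking bases shown. Both strands were searched, the motifs do not overlap one another in these windows, and the capitals mark the motif.
ATIC, upstream: gccggcgggcCACGTGataagcccgg
ATIC, downstream: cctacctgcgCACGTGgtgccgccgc
DHODH: cgctactgcgCACGTGcacccaacca
PPAT: cggagatttcCACGTGcagcaaatac
PAICS: gtatttgctgCACGTGgaaa
UMPS: acttcgcgggTGACGTCAtcggggcgcc
These matches describe the letters of the windows and were not tested for binding. CAD, GART and PFAS had no match to any of the 3 motifs in their windows.

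Levels are given in CPM, the reads of a gene per 1000000 reads on genes, scaled between libraries with edgeR's TMM factors. To compare genes with one another, CPM was divided by the length of the canonical GENCODE transcript in kb. With DMSO, IMPDH2 was the highest of the 10 at 271 ± 3.54 CPM per kb (SD, n = 3), followed by GART at 89.3 ± 0.892, PAICS at 81.3 ± 0.270, ATIC at 61.5 ± 3.95 and CAD at 43.0 ± 2.66 CPM per kb. PFAS at 35.9 ± 1.79, PPAT at 26.4 ± 1.87, UMPS at 14.3 ± 0.505, ADSL at 8.81 ± 0.153 and DHODH at 4.92 ± 0.335 CPM per kb completed the order. No gene overlapped its neighbour in this order over the 3 DMSO libraries. With doxycycline the means kept the same order, but neighbours overlapped: GART (81.1 to 94.2 CPM per kb) with PAICS (79.5 to 97.1), PAICS with ATIC (highest 82.5), CAD (lowest 51.8) with PFAS (highest 55.2), and PPAT (lowest 13.0) with UMPS (highest 14.6). The order depends on which transcript supplies the length. The summed level of the 10 genes was 2109, 2162 and 2158 CPM in DMSO replicates 1, 2 and 3, and 2304, 2331 and 2432 CPM in doxycycline replicates 1, 2 and 3, so that the groups did not overlap.

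**Figure D1:**
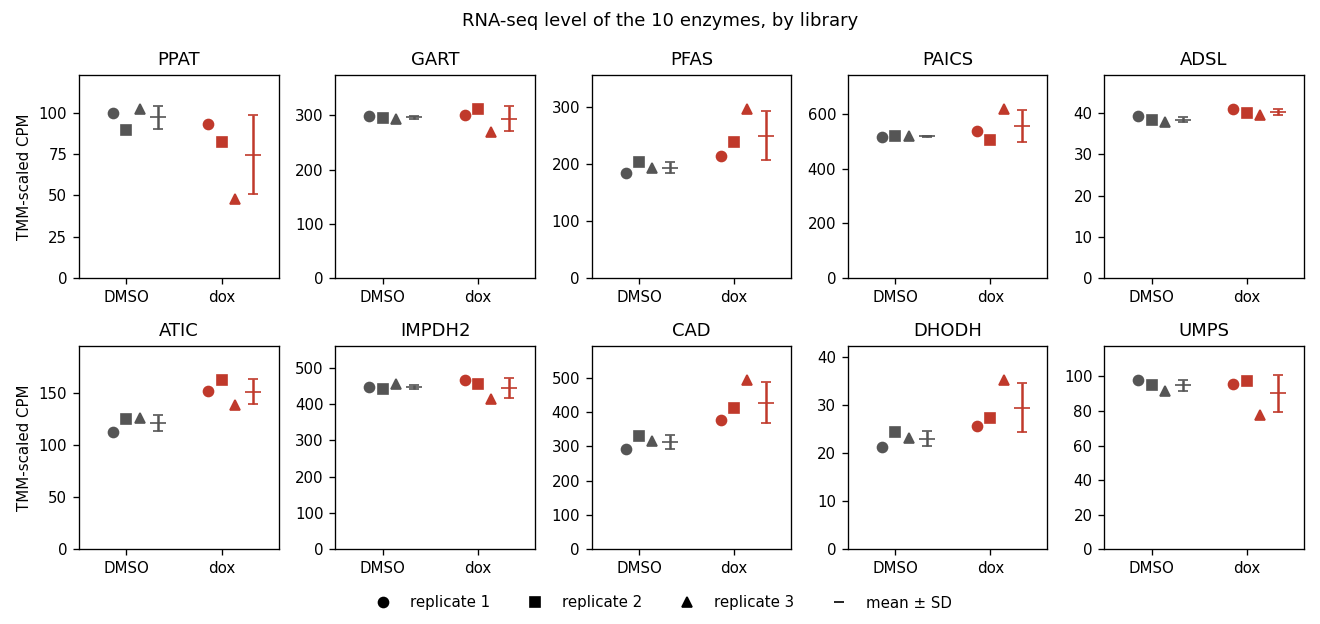
RNA-seq level of each of the 10 enzymes in CPM, with 1 point per library (circle, square and triangle for replicates 1, 2 and 3), for the 3 DMSO (grey) and the 3 doxycycline (dox, red) libraries; the bars beside the points are mean ± SD, and each axis starts at 0. ATIC and CAD are higher in every doxycycline library than in every DMSO library, while PPAT has its lowest value, 47.8 CPM, in doxycycline replicate 3.

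The comparison of doxycycline with DMSO asked whether the mRNAs of these enzymes change when 4EBP1-4A is induced. ATIC and CAD were higher with doxycycline, by 1.30-fold and 1.26-fold, once doxycycline replicate 3 was left out. PFAS and DHODH had log2 fold changes of 0.22 and 0.21 there and did not pass the threshold. Both remaining doxycycline libraries were above every DMSO library for ATIC, CAD, PFAS, DHODH, GART and ADSL, where 20.7% of all genes tested were. GART, PAICS, ADSL, IMPDH2 and UMPS had log2 fold changes between 0.0089 and 0.076 in that comparison, and PPAT had a log2 fold change of -0.15. Each difference was tested across all genes with edgeR's quasi-likelihood test, and adjusted p-values (Benjamini-Hochberg) under 0.05 were called. With all 6 libraries, 0 of the 10 enzymes and 0% of the 20552 genes tested were called. At an unadjusted p under 0.05, 4 of the 10 were higher (CAD, ATIC, PFAS and DHODH), where 9.58% of all genes were higher, and 0 were lower, where 4.13% of all genes were lower. DESeq2's Wald test called 3 genes and none of the 10, and limma voom with sample quality weights called 6961 genes and 5 of the 10. Without doxycycline replicate 3, 2 of the 10 were called higher, where 3.4% of 20459 genes were, and 0 were called lower, where 4.03% were (7.43% in either direction). The median log2 fold change of the 10 was 0.062, beside -0.0099 over all genes; with all 6 libraries these medians were 0.082 and -0.035.

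**Figure D2:**
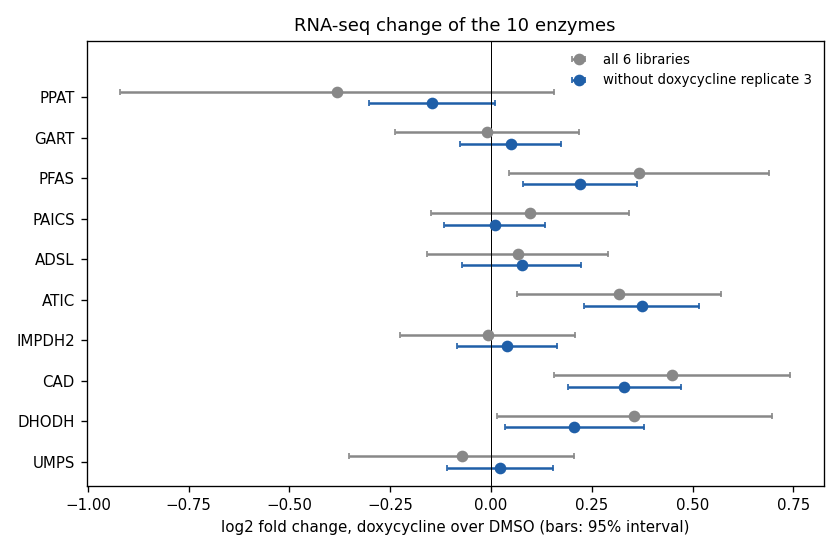
Log2 fold change of each enzyme, doxycycline over DMSO, with its 95% interval, from all 6 RNA-seq libraries (grey) and without doxycycline replicate 3 (blue). The intervals of ATIC, CAD, PFAS and DHODH lie above 0 in both colours; the blue ones run from 0.23 to 0.52, 0.19 to 0.47, 0.080 to 0.36 and 0.034 to 0.38, and are narrower than the grey ones.

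ATIC (ENSG00000138363, chromosome 2, 215311956 to 215349773, + strand), which carries out the last pair of steps to IMP and uses a folate-borne formyl group, was at 112, 126 and 126 CPM in DMSO replicates 1, 2 and 3 and at 152, 163 and 139 CPM in doxycycline replicates 1, 2 and 3. All doxycycline values were above all DMSO values, and replicate 3 was the lowest of the 3. With all 6 libraries the log2 fold change was 0.32 (SE 0.108, edgeR adjusted p = 0.326). Without doxycycline replicate 3 it was 0.37 (SE 0.0678, 95% interval 0.23 to 0.52, edgeR adjusted p = 0.00863). Without doxycycline replicate 2 as well, which leaves 1 doxycycline library that is assumed to vary like the others, it was 0.32 and the adjusted p was 0.151. ATIC stayed between 0.32 and 0.47 under every alternative tried on this comparison. GART, the trifunctional enzyme whose formyl transfer is the other folate-dependent step of the branch, was used as a reference after its values were seen. There were 0.375, 0.425 and 0.429 ATIC reads per GART read in the DMSO libraries and 0.504, 0.521 and 0.516 in the doxycycline libraries. This ratio needs no scaling between libraries, and its groups did not overlap, doxycycline replicate 3 included.

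CAD (ENSG00000084774, chromosome 2, 27217369 to 27243943, + strand) carries the first 3 activities of pyrimidine synthesis in a single protein and is a direct substrate of growth-factor kinases. It was at 293, 331 and 316 CPM in the DMSO libraries and at 378, 411 and 494 CPM in doxycycline replicates 1, 2 and 3. The groups did not overlap, and replicate 3 was the highest of all libraries. The log2 fold change was 0.45 with all 6 libraries (SE 0.126, edgeR adjusted p = 0.326) and 0.33 without doxycycline replicate 3 (SE 0.0672, 95% interval 0.19 to 0.47, edgeR adjusted p = 0.0134). It was 0.27 with an adjusted p of 0.292 without doxycycline replicate 2 as well. The next enzymes of the branch did not pass the test. DHODH (ENSG00000102967, chromosome 16, 72008588 to 72027664, + strand), the mitochondrial inner membrane enzyme that oxidises dihydroorotate, was at 21.3, 24.4 and 23.2 CPM with DMSO and at 25.7, 27.4 and 35.3 CPM with doxycycline. All its doxycycline values were above its DMSO values, and the log2 fold change was 0.36 (SE 0.147) with all 6 libraries and 0.21 (95% interval 0.034 to 0.38, edgeR adjusted p = 0.123) without doxycycline replicate 3. UMPS (ENSG00000114491, chromosome 3, 124730433 to 124749273, + strand), which attaches the ribose phosphate and removes CO2 to give UMP, was at 98.0, 95.3 and 91.3 CPM with DMSO and at 95.7, 97.2 and 77.5 CPM with doxycycline. Its groups overlapped, and the 95% interval without doxycycline replicate 3 was -0.11 to 0.15 on the log2 scale.

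The early purine enzymes differed from one another in the doxycycline libraries. PPAT (ENSG00000128059, chromosome 4, 56393362 to 56435615, − strand), the committed step that places the first nitrogen on ribose phosphate, was between 89.5 and 102 CPM in the 3 DMSO libraries and at 93.4, 82.5 and 47.8 CPM with doxycycline. Replicate 3 was far below the rest, and replicate 1 lay inside the DMSO range. The log2 fold change was -0.38 (SE 0.231, edgeR adjusted p = 0.344) with all 6 libraries and -0.15 (95% interval -0.30 to 0.0089, edgeR adjusted p = 0.220) without doxycycline replicate 3, and it was 0.019 and 0.039 when each library was corrected for GC content. GART (ENSG00000159131, chromosome 21, 33503931 to 33543491, − strand) was at 299.6, 295 and 294 CPM with DMSO and at 301, 312 and 269 CPM with doxycycline, with replicates 1 and 2 above and replicate 3 below the DMSO libraries. Its 95% interval without doxycycline replicate 3 was -0.077 to 0.17. PFAS (ENSG00000178921, chromosome 17, 8247618 to 8270491, + strand), the amidotransferase after GART's formyl transfer, was at 183, 202 and 193 CPM with DMSO and at 213, 237 and 296 CPM with doxycycline, without overlap. Its log2 fold change was 0.37 (SE 0.138, edgeR adjusted p = 0.326) with all 6 libraries and 0.22 (SE 0.0671, edgeR adjusted p = 0.0515) without doxycycline replicate 3. Over 16 alternatives of the latter, its adjusted p was under 0.05 in 9 and above it in 7.

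PAICS (ENSG00000128050, chromosome 4, 56435741 to 56464578, + strand), which adds CO2 and then aspartate, was at 517, 517 and 520 CPM with DMSO and at 538, 506 and 619 CPM with doxycycline. Its DMSO libraries had an SD of 1.72 CPM, its doxycycline values fell on both sides of them, and replicate 3 was the highest. The 95% interval without doxycycline replicate 3 was -0.12 to 0.13. PPAT and PAICS stand head to head: their RefSeq starts, 56435615 and 56435752, are 137 bases apart, and the 136 bases between them have a GC content of 75.0%. Reads of PAICS per read of PPAT numbered 5.17, 5.78 and 5.08 with DMSO and 5.76 and 6.14 in doxycycline replicates 1 and 2, but 12.9 in doxycycline replicate 3. The annotation names 7 pseudogenes of PAICS and 2 of PPAT, and reads shared with them are left out where only unique alignments are counted. ADSL (ENSG00000239900, chromosome 22, 40346461 to 40390463, + strand), which releases fumarate at 2 steps on the way to AMP, was at 39.1, 38.2 and 37.8 CPM with DMSO and at 41.0, 40.0 and 39.5 CPM with doxycycline. Its doxycycline values were all above its DMSO values by a narrow margin, with a log2 fold change of 0.076 (edgeR adjusted p = 0.531) without doxycycline replicate 3. Another gene on the same strand covers 11.1% of the exon bases of ADSL, so its level is uncertain to that extent. IMPDH2 (ENSG00000178035, chromosome 3, 49024325 to 49029447, − strand), the rate-limiting dehydrogenase towards GMP, was at 446, 442 and 454 CPM with DMSO and at 466, 454 and 414 CPM with doxycycline. Its groups overlapped, and the 95% interval without doxycycline replicate 3 was -0.085 to 0.16.

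Counted by overlap alone with all 6 libraries, 5 of the 10 enzymes (PFAS, ADSL, ATIC, CAD and DHODH) had every doxycycline library above every DMSO library, where 17.7% of the genes tested did. None had every doxycycline library below, where 20.8% of the genes did. For each of those 5 the exact permutation test gave p = 0.1, two-sided, the smallest that 3 libraries against 3 allow. This value follows from the lack of overlap by which the 5 were picked and adds nothing to it. Without doxycycline replicate 3, GART joined them, so that 6 of 10 were higher without overlap, where 20.7% of genes were, and 0 were lower, where 23% were.

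Doxycycline replicate 3 differed from doxycycline replicates 1 and 2 in step with the GC content of transcripts. With the genes in 5 groups of equal size from the lowest to the highest GC content, the median log2 difference between that library and the other doxycycline libraries ran from -0.75 through -0.46, -0.15 and 0.14 to 0.45. The 10 enzymes followed this order in part. PPAT, with a GC content of 37.9%, was at -0.87 on this scale. PFAS (58.2%), CAD (57.7%) and DHODH (52.6%) were at 0.40, 0.33 and 0.40. PAICS went against it, at 0.25 with a GC content of 41.9%, where the median of its GC group was -0.46, and so did IMPDH2, at -0.15 where the median of its GC group was 0.14. A smaller slope of the same direction remained without that library, from a median log2 fold change of -0.18 in the lowest GC group to 0.17 in the highest. ATIC, with a GC content of 47.4%, was 0.38 above the median of its GC group there. CAD was 0.25 above, ADSL 0.17, DHODH 0.12 and PAICS 0.10. GART was 0.053 above its group, PFAS 0.052, PPAT 0.036 and UMPS 0.027, while IMPDH2 was at -0.043. CAD and PFAS, close in GC content, fall in different GC groups, with medians of 0.082 and 0.17. In a fit that corrects each library for GC content, chosen after the data were seen, the log2 fold change of ATIC was 0.39 (edgeR adjusted p = 0.00473), that of CAD 0.21 (adjusted p = 0.0171) and that of PFAS 0.098 (adjusted p = 0.196).

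**Figure D3:**
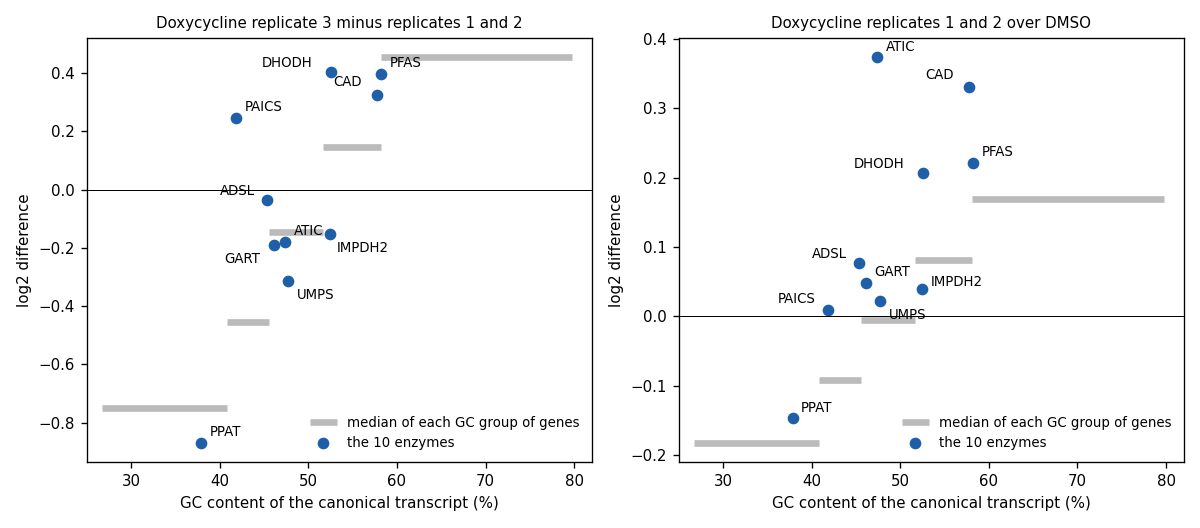
Log2 difference of each enzyme against the GC content of its canonical transcript (%), on the left for doxycycline replicate 3 minus doxycycline replicates 1 and 2, and on the right for doxycycline replicates 1 and 2 over DMSO; grey bars are medians of 5 GC groups of all genes. PPAT lies with the low-GC genes in both panels, whereas ATIC lies 0.38 above the median of its GC group on the right.

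Around these 10 enzymes, 6 lists of related genes gave few calls, and with all 6 libraries none of their genes was called. Without doxycycline replicate 3, 0 of 16 genes of the neighbouring purine and pyrimidine steps were called, with a median log2 fold change of -0.035. IMPDH1, CMPK1 and NME2 are named by their low p with all 6 libraries, but their values are given without doxycycline replicate 3. IMPDH1, the other IMP dehydrogenase, was at 0.20 (edgeR adjusted p = 0.0820). CMPK1, which phosphorylates UMP and CMP, was at -0.23 (adjusted p = 0.0634), and the nucleoside diphosphate kinase NME2 at 0.16 (adjusted p = 0.370). CTPS1 and PRPS2, with a lower p than NME2 without that library, were at 0.16 (adjusted p = 0.104) and -0.14 (adjusted p = 0.190). Reads that NME2 may share with its neighbour and close paralog NME1 were not examined.

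Of 8 genes of deoxynucleotide synthesis, 2 were lower, where 4.03% of all genes were, and 0 were higher, where 3.4% were; both encode small subunits of ribonucleotide reductase. RRM2 was at 108, 103 and 116 CPM with DMSO and at 97.5, 83.3 and 51.8 CPM with doxycycline, with a log2 fold change of -0.27 (edgeR adjusted p = 0.0366) without doxycycline replicate 3. RRM2B was at 57.8, 52.4 and 51.2 CPM with DMSO and at 48.8, 39.6 and 21.6 CPM with doxycycline, with -0.29 (adjusted p = 0.0489). In both, every doxycycline library was below every DMSO library, where 20.8% of all genes tested were. Doxycycline replicate 3 differed from doxycycline replicates 1 and 2 by -0.79 for RRM2 and -1.01 for RRM2B on the log2 scale. Neither RRM2 nor RRM2B was set against its GC group. The thymidylate kinase DTYMK was at 0.15 (adjusted p = 0.175). Of 14 salvage genes, 0 were lower and 1 was higher, where 3.4% of all genes were: the uridine-cytidine kinase UCK1, at 55.0, 57.1 and 55.0 CPM with DMSO and 66.5, 68.7 and 77.6 CPM with doxycycline, with a log2 fold change of 0.28 (adjusted p = 0.0225). The deoxynucleoside kinases DCK and DGUOK were at -0.31 (adjusted p = 0.0511) and -0.17 (adjusted p = 0.144).

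Of 9 genes of folate one-carbon metabolism, the source of the formyl groups that GART and ATIC use, 2 were lower, where 4.03% of all genes were, and 0 were higher, where 3.4% were. MTHFD2, of the mitochondrial folate pathway, was at 326, 300.4 and 349 CPM with DMSO and at 252, 217 and 128 CPM with doxycycline. Its log2 fold change without doxycycline replicate 3 was -0.47 (SE 0.0761, edgeR adjusted p = 0.00504). That library differed from doxycycline replicates 1 and 2 by -0.86 for MTHFD2 and -0.43 for ALDH1L2 on the log2 scale. Neither gene was set against its GC group. ALDH1L2, a mitochondrial enzyme that uses up formyl groups by oxidising them to CO2, was at -0.32 (adjusted p = 0.0326), and SHMT2, which takes the carbon unit from serine, at -0.21 (adjusted p = 0.0533). Of 9 nucleotide breakdown genes tested among 11, 0 were called; DPYD, AMPD2 and SAMHD1 were at -0.19, 0.086 and -0.054. Of 8 regulators, 0 were higher and 1 was lower, where 4.03% of all genes were: ATF4, a transcription factor of amino acid and folate genes, at 488, 509.6 and 545 CPM with DMSO and 429, 422 and 403 CPM with doxycycline (log2 fold change -0.27, adjusted p = 0.0218). MAX, the partner of MYC, and RPTOR, the mTORC1 scaffold, were at -0.16 (adjusted p = 0.143) and 0.15 (adjusted p = 0.200).

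**Figure D4:**
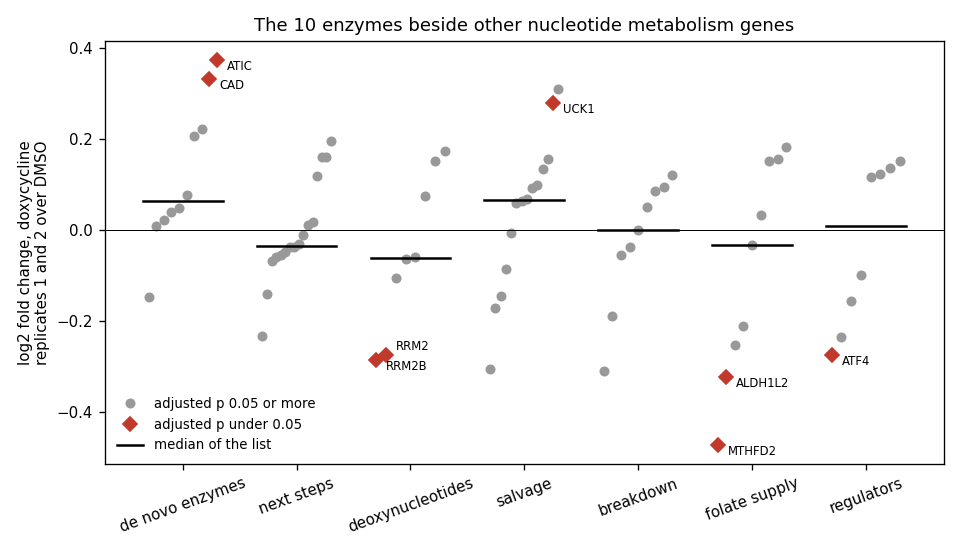
Log2 fold change without doxycycline replicate 3 for the 10 enzymes and for 6 lists of related genes, 1 point per gene, with red diamonds for an adjusted p under 0.05 and black lines for list medians. ATIC and CAD are the highest called genes shown, and MTHFD2 (-0.47) is the lowest.

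The mean pattern of the 10 enzymes, as log2 CPM centred per gene, was -0.079, -0.039 and -0.043 in the DMSO libraries and 0.056, 0.076 and 0.029 in the doxycycline libraries. Of 10358 other genes at a mean of at least 10 CPM, those with the most similar pattern over the 6 libraries were GPR107 (Pearson r = 0.989), DNAJC7 (0.988), LOXL3 (0.977), IGF2BP1 (0.977) and MOCS1 (0.976). These values describe 6 libraries that share their scaling.

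In Ribo-seq the 10 enzymes were almost absent. They had 48 reads in all over the 6 libraries, which held 210186 to 1002424 reads on genes each. In RNA-seq, the 10 enzymes took 0.199% to 0.284% of the reads on genes, with 145135 reads for PAICS alone. GART, ADSL, ATIC and CAD had 0 reads, where the 3 reads that a count of 0 allows equal 2.99 CPM in the deepest library and 14.3 CPM in the shallowest; this limit covers counting error only. PAICS had 23 reads, of which 20 were in DMSO replicate 2, 2 in DMSO replicate 1 and 1 in doxycycline replicate 3. All 12 reads of PPAT were in doxycycline replicate 1. PFAS had 8 reads, IMPDH2 had 3, and DHODH and UMPS had 1 each. Translation efficiency, which sets the Ribo-seq reads of a gene against its RNA-seq reads, could be tested for PAICS and PPAT, which had at least 10 reads in each assay. Neither was called (edgeR's quasi-likelihood test of the interaction, adjusted p = 0.242 and 0.211), where 0.15% of 1334 genes were, and both rest mainly on the reads of a single library. With 48 reads on the 10 enzymes, a change in their translation was not detectable. The reason why their share of Ribo-seq reads was so far below their share in RNA-seq was not tested.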

How the data were processed

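The analysis covered 12 libraries, RNA-seq and Ribo-seq, and groups followed the labels. The deposited raw counts were made by the authors, who aligned reads with STAR to GRCh38 and kept unique alignments within exons; the labels name GRCh37. The counter and its strand setting are not given in the sources used here. A second deposited table holds the authors' own comparison of translation (fold changes and p-values) and was used only to pair symbols with gene IDs. Of 58735 gene IDs, 99.1% matched GENCODE 44 on GRCh38, which gave the coordinates. Reads without a gene (69.2% to 94.1% of RNA-seq reads) and spike-ins stayed out of library sizes.

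Counts were scaled with TMM factors and tested with edgeR 4.0.16 (quasi-likelihood F-test; R 4.3.3, limma 3.58.1), Benjamini-Hochberg over all genes that reached 10 reads in 3 or more libraries. Translation efficiency was the interaction of assay and treatment over 12 libraries. DESeq2 1.42.0, limma voom, other scalings and filters, a replicate block and left-out libraries were alternatives. Intervals are 95%. Scripts were tested on simulated data; figures used matplotlib 3.10.9.

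The enzymes and lists were chosen with earlier results of these data known. Named genes are the 10 enzymes, EIF4EBP1, and from each list the 3 genes of lowest p with all 6 libraries, with ENSG identifiers for the enzymes. CTPS1, PRPS2, MTHFD1, MTHFD1L and SHMT1 were named in addition, after the data were seen. The 5 genes of most similar pattern were those of highest Pearson r on log2(CPM + 0.5).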

Additional observations from a re-analysis of the deposited data

How the results depend on the processing

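With all 6 libraries, the count of genes called was 0 in the reported fit, 3 with DESeq2's Wald test, 12 with edgeR's likelihood ratio test, 6961 with voom quality weights, 196 with ERCC spike-in totals as library sizes, and 0 to 1521 when 1 library was left out. Of the 10 enzymes, 5 were called with voom weights (4 higher, 1 lower) and 0 to 2 with 1 library left out. Without doxycycline replicate 3, 1521 genes were called in the reported fit, 816 with GC offsets, 0 with ERCC totals (edgeR; 195 had an unadjusted p under 0.05), and 451, 2976, 782, 2947 and 9 in turn when DMSO replicates 1, 2 and 3 and doxycycline replicates 1 and 2 were left out. The enzymes called there numbered 2 in the reported fit, 0 with ERCC totals and 0 to 3 with 1 library left out, the 0 being without doxycycline replicate 2. With ERCC totals the log2 fold changes of ATIC and CAD were 0.47 and 0.43; spike-ins ranged from 7.76 to 12.8 per 10000 gene reads among the DMSO libraries, and whether equal amounts were added is not stated. When libraries were scaled by their totals, the median log2 fold change of all genes moved from -0.035 to 0.097 with all 6 libraries, and calls without doxycycline replicate 3 were 1442 higher and 339 lower, against 696 and 825. Enzymes whose groups did not overlap numbered 5, 8 with library totals, 0 with ERCC totals and 5 to 6 with 1 library left out. In the reported scaling, 17.7% of all genes were higher without overlap and 20.8% were lower. These shares were not counted for library totals or ERCC totals, so the 8 and the 0 cannot be read as particular to the enzymes. Translation efficiency calls were 2, and 1 with library totals, 7 without the filter, 75 with DESeq2 and 0 to 1 without 1 replicate number. The cause of these changes was not tested.

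Correlations of same-numbered deviations from the group means were 0.39, -0.36 and 0.023 for replicates 1, 2 and 3. Doxycycline replicate 3 stands apart and enters the mean of its group. These values therefore cannot show whether replicate numbers pair the samples. With the replicate block, 4733 genes and 4 enzymes were called without doxycycline replicate 3, 0 genes with all 6 libraries, and 0 genes in translation efficiency.

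Small log2 fold changes reversed with all 6 libraries. GART, at -0.010, was at 0.028 with DESeq2 size factors and with its Wald test, 0.13 with library totals and with GC offsets, 0.022 with protein-coding genes only, 0.070 with voom, 0.38 with ERCC totals and -0.056 to 0.049 with 1 library left out. IMPDH2, at -0.0079, was at 0.031, 0.13, 0.025, 0.021 and 0.38 with DESeq2, library totals, protein-coding genes, voom and ERCC totals, and at 0.016 and 0.039 without DMSO replicate 3 and doxycycline replicate 3. UMPS, at -0.073, was at 0.061 with library totals, 0.043 with voom, 0.30 with ERCC totals, 0.0025 with GC offsets and -0.13 to 0.022 with 1 library left out. PAICS was at -0.019 with voom and PPAT at 0.019 with GC offsets. Without doxycycline replicate 3, UMPS was at -0.0018 with the block and at -0.0018 to 0.045 with 1 library left out, PPAT at 0.039 and IMPDH2 at -0.013 with GC offsets, and PAICS at -0.035 to 0.052 with 1 library left out.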
